A study of Mus musculus with 23 samples.

Results

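Adult neurogenesis in the dentate gyrus was followed through 10 genes, *Dcx*, *Sox11*, *Sox4*, *Igfbpl1*, *Eomes*, *Neurod1*, *Calb2*, *Prox1*, *Mki67* and *Top2a*. They were chosen by gene symbol, and each matched 1 row among the 55335 genes of the count table. In the adult hippocampus, radial glia-like stem cells of the subgranular zone divide and give rise to intermediate progenitors, then to neuroblasts and immature neurons, and at last to granule neurons that join the existing circuit. The stages follow each other in marker genes, from cell cycle genes in dividing cells through *Eomes* in intermediate progenitors and *Neurod1* in committed ones to *Dcx* and the SoxC factors in immature neurons. These cells are a small minority of the tissue in mature mice, and their output is known to decline with age.

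RNA of whole hippocampus was sequenced in 23 libraries from mice of 2 strains. WT mice were a C57BL/6J x 129S1 hybrid, and 3xTg mice, a model of familial Alzheimer's disease (AD) on a B6;129 background, carried human APPSwe and tauP301L transgenes driven by a Thy1.2 element, active in neurons. Mice of 8 months were not operated on (WT-8M, n = 4, and 3xTg-8M, n = 4). Mice of 10 months had carried an osmotic pump for 28 days that infused the lateral ventricles with 0.8% DMSO vehicle (WT-D, n = 4, and 3xTg-D, n = 4) or with SCDi at 80 µM in the same vehicle, which blocks the fatty acid enzyme stearoyl-CoA desaturase (WT-S, n = 3, and 3xTg-S, n = 4). The study's methods give all mice as female. Age, the operation and the sequencing cohort cannot be told apart between the 8-month and 10-month groups, and every 10-month control was itself infused. The 8-month labels also carry an L before the tissue code HPP, which the 10-month labels lack. The labels do not explain this letter. The libraries held 12802267 to 36686413 gene counts at 8 months and 12992547 to 17575615 at 10 months.

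Levels are given as counts scaled to a library total of 1000000 gene counts (CPM). In bulk tissue, fewer cells of a type and less RNA per cell cannot be told apart. Marker genes of the labelled tissue were abundant in every library, with a summed level of 575.6 to 756.5 CPM for 10 genes of mature granule neurons and 1315 to 1603 CPM for 8 genes of pyramidal neurons. The summed level of 12 choroid plexus genes, a tissue next to the hippocampus in the ventricle, lay between 37.4 and 138 CPM in 20 libraries and reached 377.7 in 3xTg-8M replicate 4, 383.9 in WT-S replicate 2 and 266.5 in 3xTg-S replicate 2. Libraries 3xTg-8M replicate 4 and 3xTg-S replicate 2 also had the lowest reads of long transcripts relative to short ones, with slopes of log2 expression on log2 length of -0.12 and -0.091, against -0.032 or higher in all others.

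Divided by the length of annotated exons, so that genes can be set side by side, the median level over 23 libraries was highest for *Calb2* (24.6 CPM per kilobase), which encodes the calcium-binding protein calretinin. *Prox1*, the homeobox factor that specifies granule neurons, had 13.7 CPM per kilobase and *Neurod1*, a basic helix-loop-helix factor of committed progenitors and granule neurons, 7.93. These 3 genes are not restricted to newborn cells. Mature granule neurons keep *Prox1* and *Neurod1*, interneurons use *Prox1* and *Calb2*, and mouse mossy cells use *Calb2*. The immature neuron genes were lower, at 4.38 CPM per kilobase for *Sox4*, 2.21 for *Sox11* and 1.21 for *Dcx*. *Top2a* (0.124), *Igfbpl1* (0.115), *Mki67* (0.108) and *Eomes* (0.0347) were lower again by an order of magnitude. Over all libraries the ranges of neighbours in this order overlapped, except between *Neurod1* (lowest 6.71) and *Sox4* (highest 5.63) and between *Dcx* (lowest 0.931) and *Top2a* (highest 0.235).

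**Figure D1:**
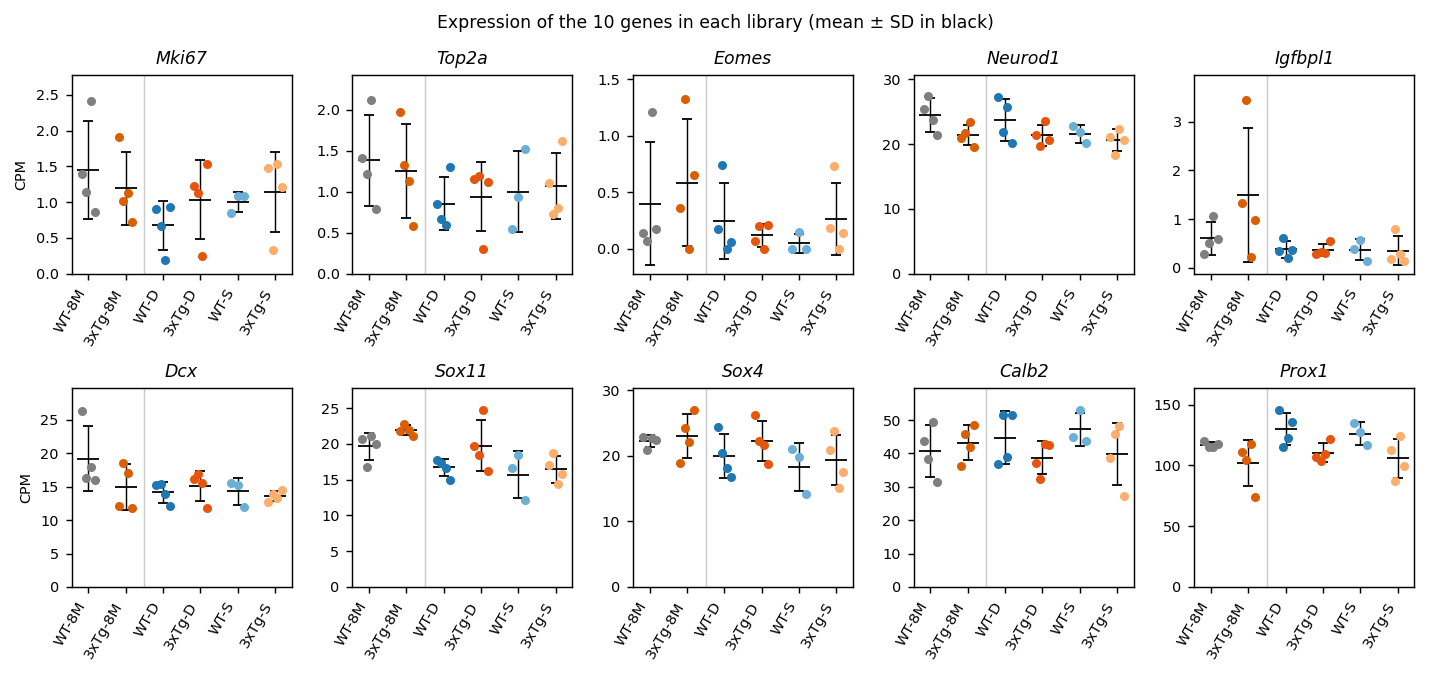
Level of each gene in CPM (linear axis, lengthened below 0 where an error bar crosses it) in every library, by group, with group mean ± SD in black and a grey line between the 8-month and 10-month groups. *Sox11* at 8 months was the only case without overlap between compared groups, and *Prox1* was at a mean of 130 CPM in WT-D, 126 in WT-S, 111 in 3xTg-D and 106 in 3xTg-S.

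Dividing cells were read through *Mki67*, which encodes the Ki-67 protein of cycling nuclei, and *Top2a*, the DNA topoisomerase of late S phase to mitosis. Both were near the detection limit of bulk sequencing. *Mki67* had 3 to 63 counts and *Top2a* 5 to 65 counts a library. Both genes have a promoter of the cell cycle class, in which CCAAT boxes stand upstream of a cell cycle homology region, and the 250 bases before their start sites in RefSeq (build GRCm38.p6) are shown because these are the members that mark division. *Mki67* is at chr7:135716380-135716629 and *Top2a* at chr11:99024190-99024439, both on the minus strand and written as the gene is read, with capitals for CCAAT (or ATTGG on the other strand) and TTTGAA (or TTCAAA).
Mki67: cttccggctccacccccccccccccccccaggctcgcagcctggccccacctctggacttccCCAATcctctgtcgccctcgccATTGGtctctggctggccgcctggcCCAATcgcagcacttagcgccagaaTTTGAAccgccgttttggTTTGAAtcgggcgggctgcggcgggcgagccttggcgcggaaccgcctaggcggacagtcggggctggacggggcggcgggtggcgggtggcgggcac
Top2a: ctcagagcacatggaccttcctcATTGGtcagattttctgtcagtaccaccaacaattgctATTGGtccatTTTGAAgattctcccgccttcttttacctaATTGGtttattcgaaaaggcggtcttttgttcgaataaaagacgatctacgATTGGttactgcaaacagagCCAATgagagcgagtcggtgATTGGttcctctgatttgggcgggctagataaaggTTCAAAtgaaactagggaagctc

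The *Mki67* window held 3 CCAAT and 2 TTTGAA matches, and the *Top2a* window 6 and 2. No 2 matches overlapped in either window. Among the windows of 32851 promoters in the table, 33.8% held CCAAT on either strand and 2.79% held 3 or more, while 16% held TTTGAA and 1.81% held 2 or more. Such matches describe the letters and do not show that a factor binds there.

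In WT-8M the 4 libraries read 1.39, 1.14, 2.42 and 0.856 CPM of *Mki67*, and in 3xTg-8M 1.91, 1.02, 1.13 and 0.717. WT-D libraries had 0.910, 0.671, 0.197 and 0.934 CPM and 3xTg-D libraries 1.23, 1.12, 0.244 and 1.53. In WT-S the values were 0.847, 1.08 and 1.09 CPM, and in 3xTg-S 1.48, 0.332, 1.54 and 1.22. The groups overlapped in every pair, and the lowest library of WT-D, 3xTg-D and 3xTg-S rested on 3, 4 and 5 counts. For WT-D replicate 3 the exact 95% Poisson interval ran from 0.0407 to 0.577 CPM, below the values of the other 3 libraries of its group. It overlapped their own intervals, which started at 0.520, 0.322 and 0.523 CPM. Such intervals cover counting error only.

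*Top2a* ranged from 0.305 CPM in 3xTg-D replicate 3 to 2.12 CPM in WT-8M replicate 3, with group means between 0.856 (WT-D) and 1.38 (WT-8M). Neither gene passed the threshold for strain or inhibitor in any comparison. The strain effect over the 15 libraries of 10 months was 0.37 on the log2 scale for *Mki67* (95% CI -0.37 to 1.1) and 0.094 for *Top2a* (-0.51 to 0.70). The inhibitor effect was 0.32 for *Mki67* (-0.41 to 1.04) and 0.20 for *Top2a* (-0.40 to 0.80). Single libraries moved these values. With 1 library left out, the strain effect of *Mki67* ran from 0.22 (without WT-D replicate 3) to 0.54 (without 3xTg-D replicate 3) and that of *Top2a* from -0.019 (without WT-S replicate 1) to 0.26 (without 3xTg-D replicate 3). The inhibitor effect of *Mki67* ran from 0.13 (without 3xTg-D replicate 3) to 0.497 (without 3xTg-S replicate 2) and that of *Top2a* from 0.034 (without 3xTg-D replicate 3) to 0.31 (without WT-S replicate 1). At this depth a doubling of either gene with strain would lie outside the *Top2a* interval but inside that of *Mki67*.

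**Figure D2:**
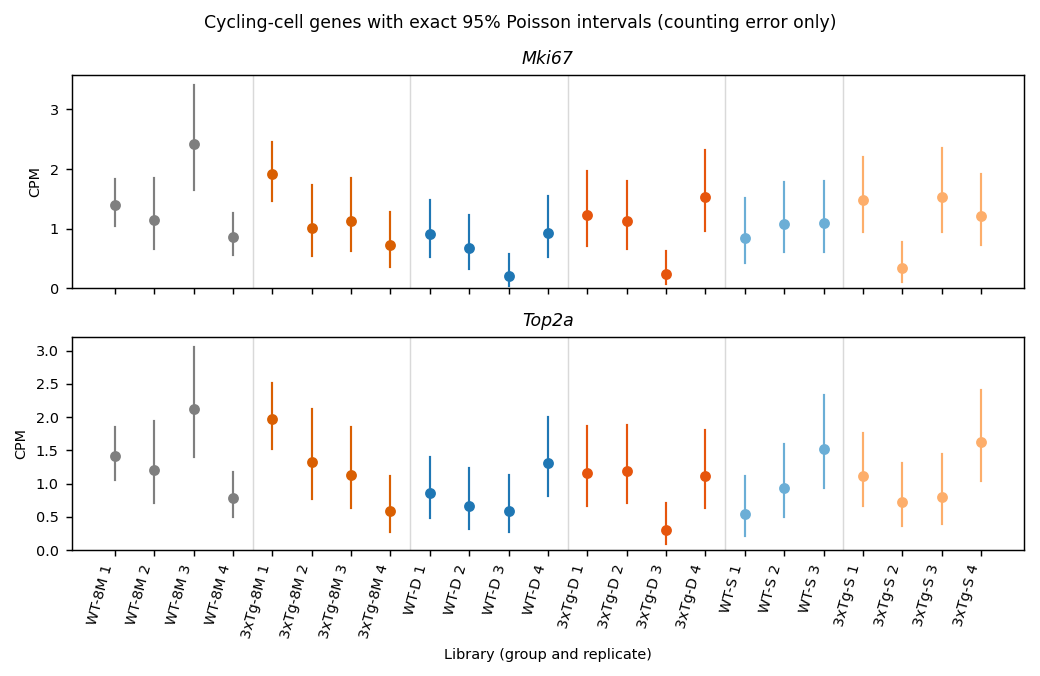
*Mki67* (top) and *Top2a* (bottom) in CPM (linear axis from 0) for each of 23 libraries, coloured by group, with exact 95% Poisson intervals as vertical lines. The lowest *Mki67* libraries are WT-D replicate 3 (0.197 CPM), 3xTg-D replicate 3 (0.244) and 3xTg-S replicate 2 (0.332), and *Top2a* is lowest in 3xTg-D replicate 3 (0.305).

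Of 30 other cell cycle genes listed, 22 were tested over the 10-month libraries, where 1 was higher and 1 lower in 3xTg, against 3.17% of all genes called higher and 3.36% called lower. *Mcm6*, a subunit of the replicative helicase, had 14.9 to 20.6 CPM in WT libraries of 8 and 10 months and 3.53 to 5.23 CPM in 3xTg libraries. It was lower in 3xTg in each pair, with log2 fold changes of -1.87 (SE 0.13) at 8 months, -2.0 (SE 0.14) under vehicle and -2.11 (SE 0.12) under the inhibitor (edgeR adjusted p = 5.6e-06, 8.3e-06 and 2.6e-06). The WT and 3xTg ranges did not overlap.

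*Bub1b*, a kinase of the mitotic checkpoint, was higher in 3xTg-D, at 3.17 to 5.27 CPM, than in WT-D, at 0.197 to 2.08 CPM, with a log2 fold change of 2.05 (SE 0.45, edgeR adjusted p = 0.046). It did not pass at 8 months (0.80, SE 0.53) or between 3xTg-S and WT-S (0.92, SE 0.35), and its call under vehicle was lost without any of WT-D replicates 1, 3 and 4 and 3xTg-D replicates 1, 2, 3 and 4, with adjusted p up to 0.13. The median log2 fold change of the list over the 10-month libraries was 0.13, against -0.00061 over all genes. No gene of the list was called for the inhibitor, for which edgeR called 0% of all genes. *Lct*, a marker of mature granule neurons described below, is the neighbour of *Mcm6* on chromosome 1, at 128284756 to 128328318 against 128331590 to 128359664 (GRCm38).

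*Eomes*, the T-box factor Tbr2 of intermediate progenitors, had 0 to 17 counts a library and did not pass the filter on low counts in any comparison with all its libraries. It was at 0 counts in 6 libraries, 1 each of 3xTg-8M, WT-D, 3xTg-D and 3xTg-S and 2 of WT-S. A count of 0 in WT-S replicate 1 allows a level up to 0.231 CPM, taken as 3 counts. Summed over libraries the groups had 27 counts in WT-8M, 39 in 3xTg-8M, 15 in WT-D, 7 in 3xTg-D, 2 in WT-S and 16 in 3xTg-S. Most of these came from few libraries, with 16 of the 27 counts in WT-8M replicate 3 and 11 of the 16 in 3xTg-S replicate 2. *Eomes* entered fits only with no filter, in DESeq2 or with some libraries left out, and was called in none of them, with a lowest adjusted p of 0.38 (3xTg-S and WT-S, edgeR with no filter).

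*Igfbpl1*, an insulin-like growth factor binding protein family member used as a marker of neuroblasts, had 2 to 44 counts a library. The 8-month libraries had 0.273, 0.498, 1.06 and 0.582 CPM in WT and 1.34, 3.44, 0.225 and 0.977 CPM in 3xTg. The 15 libraries of 10 months lay between 0.135 and 0.796 CPM. *Igfbpl1* passed the filter among pairs of groups only at 8 months, where 3xTg-8M held 106 of its counts and WT-8M 48, so its passing was not independent of the difference. The log2 fold change there was 1.41 (SE 0.60, unadjusted p = 0.0386, edgeR adjusted p = 0.26), and it was 0.77 without 3xTg-8M replicate 2.

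Of 8 listed genes of progenitors and neuroblasts, 5 or 6 were tested in each comparison and none passed for strain or inhibitor. Of all genes, 3.17% were called higher and 3.36% lower for strain at 10 months, and 0% for the inhibitor. In the 10-month strain effect *Neurog2*, a proneural factor, had 0.63 (edgeR adjusted p = 0.36) and *Mex3a*, an RNA-binding protein, -0.20 (adjusted p = 0.44), the smallest p-values of the list. *Neurog2* did not pass the filter at 8 months, where it was at 0.0757 to 0.285 CPM in WT-8M, with at most 10 counts a library, and at 0.675 to 1.24 CPM in 3xTg-8M, with at most 34. These ranges did not overlap, against 11.1% of the genes tested in that pair, and *Neurog2* was named there after its values were seen. The filtered fit did not test the difference, and its values in the fits with no filter are not given here. All 11 listed genes of stem cells and radial glia-like cells were tested, and *Vim*, an intermediate filament of glia and stem cells, was higher in 3xTg over the 10-month libraries (0.43, SE 0.091, edgeR adjusted p = 0.0066). Its group ranges were 34.9 to 53.1 CPM in WT-D, 54.2 to 64.5 in 3xTg-D, 43.8 to 70.8 in WT-S and 66.7 to 81.7 in 3xTg-S. No other gene of that list passed, so that 1 of 11 was called higher against 3.17% of all genes, and astrocytes share most of the list.

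*Neurod1* was the most even of the members, between 18.3 and 27.5 CPM over all libraries. The values in WT-8M were 25.4, 27.5, 23.7 and 21.4 CPM against 20.9, 21.6, 23.4 and 19.6 in 3xTg-8M. WT-D libraries had 27.3, 21.8, 25.7 and 20.2 CPM and 3xTg-D libraries 21.4, 19.7, 23.6 and 20.6. In both pairs the WT mean was higher and the groups overlapped. The log2 fold change was -0.19 (95% CI -0.39 to -0.00040, unadjusted p = 0.0496, edgeR adjusted p = 0.29) at 8 months, -0.17 (-0.40 to 0.060) under vehicle and -0.068 (-0.27 to 0.14) under the inhibitor, and none passed. Without 3xTg-S replicate 2 the last value was -0.011. *Neurod1* shares 201 exonic bases with *Cerkl*, a gene on the same strand with 1660 counts in all against 8739.

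Immature neurons were read through *Dcx*, the microtubule-associated protein doublecortin of migrating neurons, and the SoxC factors *Sox4* and *Sox11*, which turn on neuronal genes in newborn cells. *Dcx* was at 26.4, 16.4, 18.01 and 16.1 CPM in WT-8M and at 12.1, 18.6, 17.1 and 11.8 in 3xTg-8M. WT-D libraries had 15.2, 15.4, 13.9 and 12.1 CPM and 3xTg-D libraries 16.2, 16.8, 15.6 and 11.8. WT-S libraries had 15.6, 15.2 and 12.04 CPM and 3xTg-S libraries 12.6, 13.9, 13.4 and 14.5. WT and 3xTg libraries overlapped in all 3 pairs, and WT-8M replicate 1 was the highest library of the series.

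The strain difference of *Dcx* at 8 months was -0.40 on the log2 scale (95% CI -0.80 to 0.0062, unadjusted p = 0.0530, edgeR adjusted p = 0.29) and -0.19 without WT-8M replicate 1. Over the 10-month libraries *Dcx* had 0.010 (-0.17 to 0.19), and the inhibitor effect was -0.086 (-0.27 to 0.094). With 1 library left out, its strain effect ran from -0.032 (without WT-D replicate 4) to 0.056 (without WT-S replicate 1). It was below 0 in 4 of 15 such fits. The difference between the strain effects at 8 months and under vehicle at 10 months was 0.48 (95% CI -0.026 to 0.98, unadjusted p = 0.0615, edgeR adjusted p = 0.54).

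*Sox11* was the only member whose groups did not overlap in any pair. It was at 20.7, 16.8, 21.0 and 19.99 CPM in WT-8M and at 21.8, 22.8, 21.99 and 21.1 in 3xTg-8M. Among the genes tested at 8 months 11.1% did not overlap, and in the other pairs the share was 7.28% (3xTg-D and WT-D), 10.6% (3xTg-S and WT-S), 6.89% (3xTg-S and 3xTg-D), 4.94% (WT-S and WT-D) and 10.1% (3xTg-S and WT-D). The log2 fold change was 0.16 (95% CI -0.018 to 0.33, edgeR adjusted p = 0.34). Under vehicle *Sox11* was at 17.8, 17.4, 16.6 and 15.004 CPM in WT-D and 19.7, 18.4, 24.7 and 16.2 in 3xTg-D, and under the inhibitor at 16.6, 18.4 and 12.1 CPM in WT-S and 17.0, 18.8, 14.3 and 15.7 in 3xTg-S. The 3xTg-S mean was below that of 3xTg-D, with a log2 fold change of -0.27 (-0.52 to -0.013, unadjusted p = 0.0411, edgeR adjusted p = 0.44). Without 3xTg-D replicate 3, the library at 24.7 CPM, the value was -0.15.

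*Sox4* lay between 14.1 and 27.0 CPM, with strain effects of 0.047 at 8 months, 0.14 under vehicle and 0.075 under the inhibitor, none past the threshold. The direction of *Sox4* turned with single libraries. At 8 months it was -0.055 without 3xTg-8M replicate 4, and under the inhibitor -0.091 without WT-S replicate 3 and -0.035 without 3xTg-S replicate 2. For both SoxC genes the inhibitor effect was below 0, at -0.19 (-0.39 to 0.0050) for *Sox11* and -0.18 (-0.41 to 0.051) for *Sox4*, and neither passed. An antisense gene, Gm26735, covers 2616 exonic bases of *Sox4*, and because no source used here states whether counting used strand, reads of the pair cannot be told apart.

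Of 15 other listed genes of immature neurons 13 were tested at 8 months and 1 was called lower, against 1.53% of all genes. This was *Dpysl3*, a collapsin response mediator of growth cones, which was lower in 3xTg-8M (-0.32, SE 0.057, edgeR adjusted p = 0.012). It was at 70.7 to 79.4 CPM in WT-8M and 57.99 to 63.4 in 3xTg-8M, and its adjusted p was 0.054 without 3xTg-8M replicate 1. Over the 10-month libraries *Marcksl1*, an actin regulator of young neurites, was lower in 3xTg (-0.29, SE 0.074, edgeR adjusted p = 0.020), while *Dpysl3* had -0.11 (SE 0.060). The call of *Marcksl1* was lost without WT-D replicate 4 (adjusted p = 0.052) or WT-S replicate 3 (0.062). The list's median in the 10-month strain effect was -0.072, with 11 of 14 tested genes below 0 against 50.2% of all genes. Several of its genes were far above *Dcx*, with WT-8M means of 310 CPM for *Ncam1* and 279 for *Neurod6* against 19.2 for *Dcx*. The list therefore cannot be read as immature neurons alone, and the part of mature neurons in it was not tested. No gene of it was called for the inhibitor, for which edgeR called 0% of all genes.

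*Calb2* marks a brief postmitotic stage of newborn granule neurons as well as interneurons and mossy cells. Over all libraries it lay between 27.3 and 53.0 CPM. WT-D libraries had 36.8, 51.7, 39.0 and 51.4 CPM and 3xTg-D libraries 37.1, 32.4, 42.9 and 42.6. WT-S libraries had 45.0, 53.0 and 43.8 CPM and 3xTg-S libraries 38.6, 45.7, 48.1 and 27.3. The 3xTg means were lower and the groups overlapped. The strain effect over the 10-month libraries was -0.23 (95% CI -0.45 to -0.010, unadjusted p = 0.0412, edgeR adjusted p = 0.23), and 0.088 (-0.19 to 0.37) at 8 months, where it was 0.010 without 3xTg-8M replicate 4. In the same comparison, 2 of 7 listed genes of interneurons from the caudal ganglionic eminence were higher in 3xTg, *Htr3a* (0.90, adjusted p = 0.00028) and *Vip* (0.57, adjusted p = 0.011), against 3.17% of all genes called higher, and none of 6 mossy cell genes passed. The part of these cells in the *Calb2* values was not tested.

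*Prox1* was the member that passed the threshold. In the 10-month libraries it was at 145.5, 115.4, 122.8 and 136.2 CPM in WT-D and 107.4, 103.9, 109.3 and 122.1 CPM in 3xTg-D. Under the inhibitor it was at 134.8, 127.5 and 116.6 CPM in WT-S and 113.2, 87.4, 124.2 and 99.4 CPM in 3xTg-S. Both 3xTg means were lower, and the highest 3xTg library of each treatment lay within the range of its WT group. Over the 15 libraries the log2 fold change was -0.25 (SE 0.072, 95% CI -0.40 to -0.099, edgeR adjusted p = 0.0426), and *Prox1* was the 1 member called of 8 tested, against 6.53% of all 16262 genes (3.36% lower). Under an unadjusted p of 0.05 were *Prox1* and *Calb2*, against 19.7% of genes. The DESeq2 likelihood ratio test called it too (adjusted p = 0.025).

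The call stood close to the threshold. It was lost in 11 of 15 fits that left out 1 library, with adjusted p between 0.014 and 0.099 and log2 fold changes between -0.29 and -0.21, and was below 0 in all 15. Libraries whose absence ended it were WT-D replicates 1, 3 and 4, 3xTg-D replicates 1, 2 and 3, WT-S replicates 1 and 2 and 3xTg-S replicates 1, 2 and 4. Without 3xTg-S replicate 2, the library with the lowest 10-month value and a high choroid plexus level, it was -0.21 (adjusted p = 0.056). With the trend on transcript length and GC content removed it was -0.26 (adjusted p = 0.016).

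In the pairs of groups, where 1.39% of genes were called under vehicle and 1.32% under the inhibitor, *Prox1* did not pass in edgeR or DESeq2, and it was the 1 member under an unadjusted p of 0.05 in each, against 13.1% and 10.6% of genes. The log2 fold change was -0.25 under vehicle (95% CI -0.42 to -0.072, unadjusted p = 0.0097, edgeR adjusted p = 0.20) and -0.25 under the inhibitor (-0.49 to -0.014, unadjusted p = 0.0397, edgeR adjusted p = 0.43). The latter was -0.17 without 3xTg-S replicate 2. Both pairs belong to the 15 libraries of the joint estimate and are no separate support for it. At 8 months *Prox1* was at 119.8, 115.3, 115.2 and 118.1 CPM in WT-8M and 110.8, 104.5, 118.0 and 74.3 CPM in 3xTg-8M. There the difference was -0.20 (-0.44 to 0.042, unadjusted p = 0.0965), and -0.087 without 3xTg-8M replicate 4, the library at 74.3 CPM with the lowest length slope.

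The strain effect on *Prox1* was not called as different between treatments (interaction -0.0091, 95% CI -0.32 to 0.30) or between 8 months and vehicle at 10 months (-0.045, -0.35 to 0.26). The interaction with treatment was 0.076 without 3xTg-S replicate 2, and that with cohort -0.16 without 3xTg-8M replicate 4. An antisense gene, Prox1os, shares 133 exonic bases with *Prox1* and had 1770 counts in all against 45068.

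**Figure D3:**
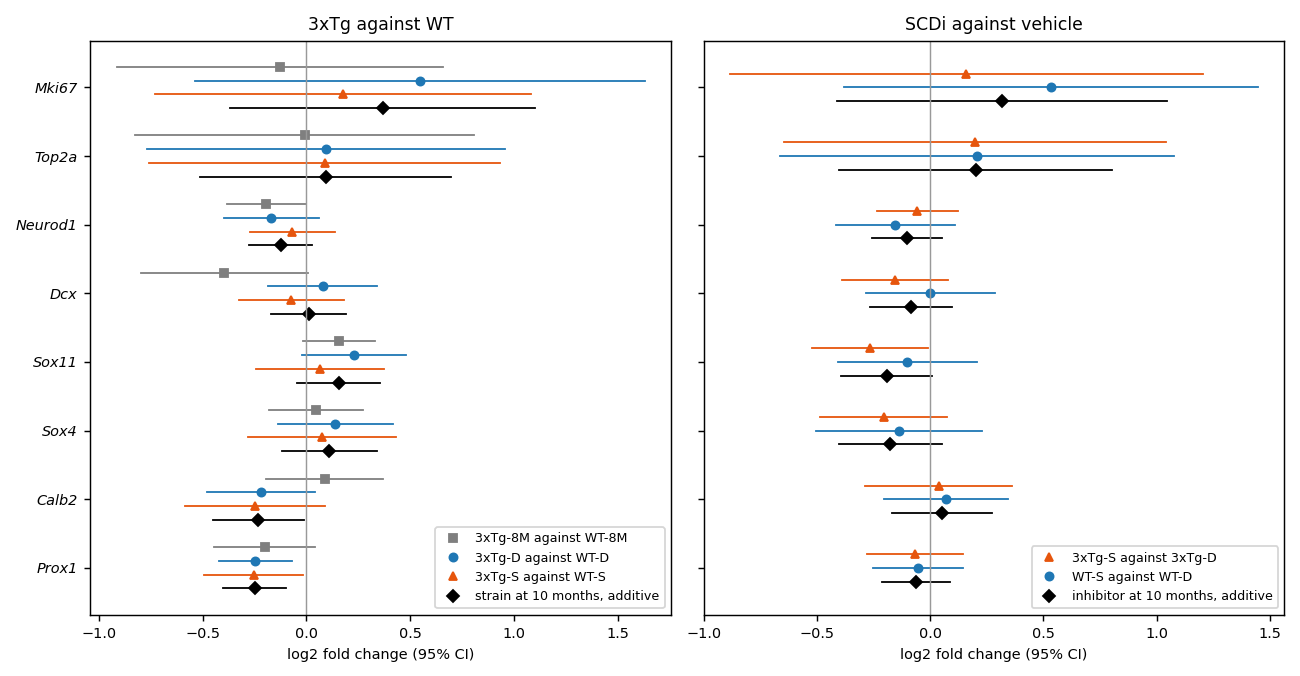
Log2 fold change (points) with 95% CI (lines) of the 8 members tested at 10 months, for 3xTg against WT (left, with the 8-month pair in grey) and for SCDi against vehicle (right), from edgeR fits across all genes. Black diamonds are the effects over all 15 libraries of 10 months, where every inhibitor interval includes 0. For strain, *Prox1* lies at -0.25 and *Calb2* at -0.23, each with an interval below 0, and only *Prox1* passed the threshold. Between 3xTg-S and 3xTg-D the interval of *Sox11* lies below 0, and *Sox11* did not pass.

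*Prox1* was set beside the list of mature granule neuron genes, all 10 of which were tested. Over the 10-month libraries 4 were lower in 3xTg and none higher, against 3.36% of all genes called lower. *C1ql2*, a synaptic organiser secreted at mossy fibre terminals, was lower by the most, at 22.7 to 28.0 CPM in 3xTg-D against 50.8 to 78.6 in WT-D and at 24.5 to 30.2 CPM in 3xTg-S against 68.3 to 81.0 in WT-S (-1.41, SE 0.083, edgeR adjusted p = 1.1e-09). The others were *Lct* (-0.46, adjusted p = 0.013), *Stxbp6*, a SNARE-binding protein (-0.29, adjusted p = 0.0058), and *Glis3*, a zinc finger factor (-0.26, adjusted p = 0.046). *Calb1*, which encodes calbindin of mature granule neurons, had 0.0076, *Dsp*, a desmosome protein, -0.083 and *Tdo2*, tryptophan dioxygenase, 0.058, and none of these passed.

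The median of the list was -0.16 against -0.00061 over all genes. *C1ql2* was also lower at 8 months, at 27.8 to 29.9 CPM in 3xTg-8M against 53.2 to 64.8 in WT-8M (-1.04, SE 0.071, edgeR adjusted p = 6.5e-06), the only gene of the list called there. In the fits that left out 1 library at 10 months, 3 or 4 of the 10 genes were called lower. The call of *Glis3* was lost in 13 of 15 such fits, all but those without WT-S replicate 1 or 3xTg-S replicate 3, with adjusted p up to 0.10. *C1ql2* and *Lct*, both called lower at 10 months, lie on chromosome 1, at 120340582 to 120343174 and 128284756 to 128328318 (GRCm38). *Lct* is the neighbour there of *Mcm6*, which was also lower in 3xTg. The part of this shared position in the count of genes called lower was not tested. *Prox1* is on the same chromosome at 190118035 to 190170714.

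**Figure D4:**
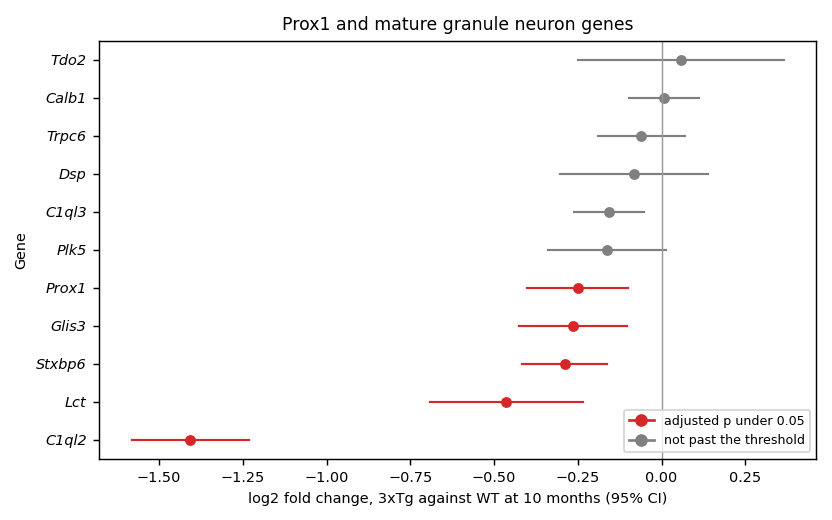
Log2 fold change of 3xTg against WT over 15 libraries of 10 months for *Prox1* and the 10 mature granule neuron genes, with 95% CI, in red where the edgeR adjusted p was under 0.05. *C1ql2* (-1.41) stands apart from the other called genes, *Lct* (-0.46), *Stxbp6* (-0.29), *Glis3* (-0.26) and *Prox1* (-0.25).

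No member passed the threshold for SCDi. Over the 15 libraries 0 of 8 tested members and 0% of 16262 genes were called by edgeR, 0 members and 43 genes by DESeq2, and 0 members were under an unadjusted p of 0.05 in edgeR against 13.6% of all genes. Between 3xTg-S and 3xTg-D, 0 members and 0% of genes were called by edgeR and 0 members and 14 genes by DESeq2, and *Sox11* was the 1 member under an unadjusted p of 0.05, against 11.2% of genes. Between WT-S and WT-D both tests called 0 genes, and 0 members were under an unadjusted p of 0.05 against 3.42% of genes. The widths of the intervals differ between members. For *Prox1* the 95% CI of the inhibitor effect ran from -0.21 to 0.088, around -0.063 (-0.019 without 3xTg-S replicate 2), and for *Dcx* from -0.27 to 0.094, whereas for *Mki67* it ran from -0.41 to 1.04.

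Between the 3xTg-S and WT-D groups, which differ in strain and treatment, no member was called by edgeR or DESeq2, against 2.29% of genes in edgeR, and *Prox1* was the 1 member under an unadjusted p of 0.05, against 16.9%. *Prox1* had -0.31 (95% CI -0.54 to -0.081, unadjusted p = 0.0120, edgeR adjusted p = 0.16) and *Mki67* 0.71 (-0.28 to 1.69). This comparison shares WT-D with the vehicle pair. At 8 months 0 of 9 tested members were called by edgeR and 0 by DESeq2, against 2.58% of genes in edgeR, and *Neurod1* was under an unadjusted p of 0.05, against 17.4% of genes. *Igfbpl1* was under it too, but it had passed the filter through the group where it was high, and nothing is read from its p-value. No member was called in the interaction of strain and inhibitor, where edgeR and DESeq2 called 0 genes and no member was under an unadjusted p of 0.05, against 2.32% of genes. In the interaction of strain and cohort edgeR called 0.0621% of genes and DESeq2 20 genes, with no member called by either and none under an unadjusted p of 0.05 by edgeR, against 9.57% of genes.

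The members varied together in part within groups. With each value taken less its group mean over the 15 libraries of 10 months, *Sox11* and *Sox4* had the highest correlation of log2 CPM (Pearson r = 0.74, Spearman rho = 0.76). It was 0.83 without the 2 libraries farthest from the *Sox11* median. *Dcx* correlated with *Sox11* (r = 0.65, rho = 0.50) and with *Sox4* (r = 0.65, rho = 0.66), with r = 0.35 and 0.49 without the 2 libraries farthest from its median. The windows of *Sox11* (chr12:27342719-27342968, minus strand) and *Sox4* (chr13:28953714-28953949, minus strand) are shown for this pair, with the same motifs in capitals and with bases that the Gencode annotation counts as exon left out.
Sox11: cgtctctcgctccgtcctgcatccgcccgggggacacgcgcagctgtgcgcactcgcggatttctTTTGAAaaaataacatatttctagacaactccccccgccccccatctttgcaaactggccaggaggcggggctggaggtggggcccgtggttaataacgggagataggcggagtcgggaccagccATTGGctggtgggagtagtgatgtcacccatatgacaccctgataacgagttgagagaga
Sox4: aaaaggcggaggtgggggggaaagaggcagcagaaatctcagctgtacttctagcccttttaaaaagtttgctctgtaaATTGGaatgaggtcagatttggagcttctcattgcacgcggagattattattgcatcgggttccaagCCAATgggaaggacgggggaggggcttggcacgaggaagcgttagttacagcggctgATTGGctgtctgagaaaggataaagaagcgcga

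*Sox11* held 1 CCAAT and 1 TTTGAA match and *Sox4* 3 CCAAT matches and no TTTGAA. Of the members, 8 had an entry in the promoter table, and *Igfbpl1* and *Calb2* were not matched.

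*Mki67* and *Top2a* correlated with r = 0.72 (rho = 0.48), or 0.50 without the 2 libraries farthest from the *Mki67* median, on few counts each. Both were negatively correlated with *Sox11*, *Top2a* with r = -0.69 and *Mki67* with r = -0.54. These were -0.47 and -0.46 without the 2 libraries farthest from the *Sox11* median. *Igfbpl1* and *Eomes* had r = 0.70, with counts of 12 or fewer in each of the 15 libraries, and *Neurod1* and *Prox1* had r = 0.61. Pairs from unlike stages reached similar values. *Igfbpl1* and *Calb2* had r = 0.65 (rho = 0.67), and *Prox1* and *Mki67* r = 0.55 (rho = 0.62). *Eomes* and *Neurod1* had r = -0.51 (rho = -0.48). All these values come from the same 15 libraries and share their depth and dissection.

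Among genes that averaged 5 CPM or more, the nearest to *Dcx* by this measure were *Rab8b* (r = 0.90), *Kif2a* (0.89), *Spred1* (0.87), *Cxxc4* (0.87) and *Pou3f2* (0.87). The nearest to *Mki67* were *Amer3* (0.93), *Jph4* (0.91), *Zswim5* (0.91), *Dag1* (0.90) and *D430019H16Rik* (0.90). They were picked as the highest of 11670 and 11671 genes. None of the 10 is a member or a listed cell cycle gene. *Top2a* (at most 2.12 CPM), *Eomes*, *Igfbpl1* and most listed cell cycle genes were under 5 CPM and could not be picked, so nothing is read from their absence.

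**Figure D5:**
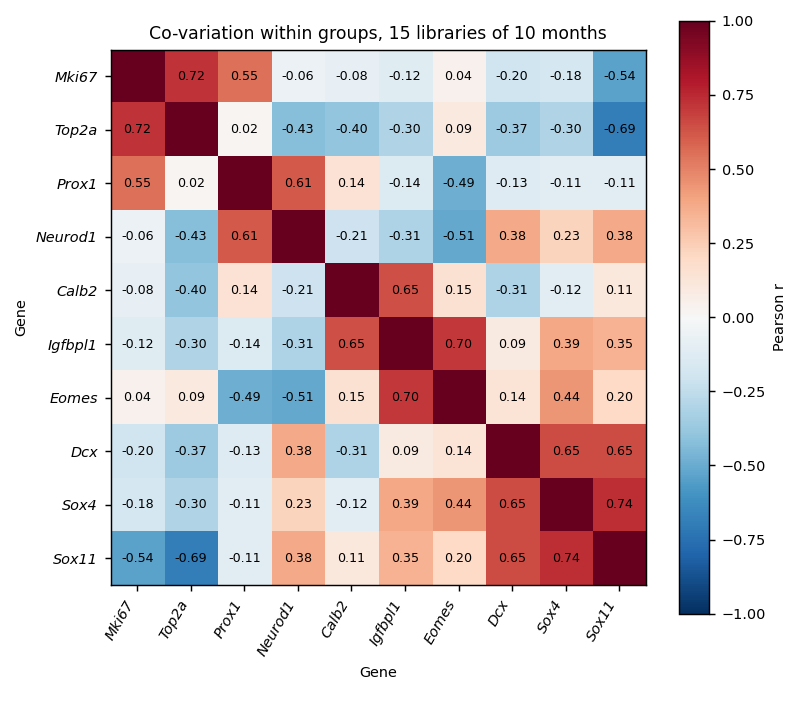
Pearson r between members over 15 libraries of 10 months, from log2 CPM less the group mean, in red above 0 and blue below. *Sox11*, *Sox4* and *Dcx* form a red square (0.65 to 0.74), *Mki67* and *Top2a* another (0.72), and the cells between *Sox11* and these 2 genes are blue (-0.54 and -0.69).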

How the data were processed

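The authors trimmed single-end reads with Trimmomatic 0.35, aligned them with STAR 2.5.1b to GRCm38 and deposited raw read counts for each gene and library, without normalization or pooling. The strand setting and any collapsing of molecular identifiers are not given in the sources used here. Samples were grouped by the strain, age and treatment of their labels. The 4 lines that name no gene held 24.7% to 30.9% of reads and were left out.

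Each comparison was fitted across all genes with edgeR 4.0.16 in R 4.3.3 (filterByExpr, TMM, quasi-likelihood test, Benjamini-Hochberg adjusted p under 0.05, "called"), in pairs on the 2 groups' libraries and additively or with an interaction over the 15 libraries of 10 months. The interaction with cohort used the untreated and vehicle groups. The test was checked on simulated counts. Standard errors are the fold change divided by the root of F. DESeq2 1.42.0 was an alternative. CPM used the total of gene counts, and log2 CPM had a prior count of 2. Exon lengths and GC content came from Gencode M21, present for 99.7% of genes. Replicates are separate animals by their labels.

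All 10 members are named. From the other lists, written from general knowledge, called genes are named, at most 3 a list and comparison, or else at most 2 of the smallest p. *Neurog2* at 8 months, *Dpysl3* at 10 months, *Bub1b* in uncalled pairs, *Glis3*, *Reln*, *Calb1*, *Dsp* and *Tdo2* were named after their values were seen. Members and lists were chosen with earlier results of these data known. An allele of the 3xTg strain and a listed gene are not reported here.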

Additional observations from a re-analysis of the deposited data

Results flagged for a closer look

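In 50 group-by-gene sets of 4 libraries, the gap of an extreme library to its neighbour, as a share of the range, passed the critical value of Dixon's rule in 3, where chance gives about 1 in 20. *Igfbpl1* was highest in 3xTg-D replicate 4, at 0.558 CPM (8 counts). *Eomes* was highest in WT-8M replicate 3, at 1.21 CPM (16 counts). *Top2a* was lowest in 3xTg-D replicate 3, at 0.305 CPM (5 counts).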

How the results depend on the processing

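With no filter on low counts, 1 member (*Prox1*) was called between 3xTg-D and WT-D and 1 (*Prox1*) between 3xTg-S and WT-D, and 2 (*Prox1* and *Calb2*) for strain over the 10-month libraries, against 2.57%, 3.68% and 4.71% of all genes in these fits. At an unadjusted p under 0.01, 1 member (*Prox1*) was called between 3xTg-D and WT-D, against 4.95% of genes. Leaving out each library in turn gave 0 to 1 members called for strain over the 10-month libraries and 0 in every other comparison. Other counts of members did not change under DESeq2 size factors, the DESeq2 test, the length and GC trend, all 15 libraries in one fit, or a replicate block for 4 runs of animal numbers. Same-run libraries had r from -0.34 to 0.36 (median r = -0.012 over 21 pairs, 0.0049 over 63 others). The labels do not say what the runs are, and these medians cannot decide whether they are a pairing. The block called 165 genes under vehicle and 78 under the inhibitor in place of 216 and 206. Among 514 member fold changes in settings other than a library left out, none changed sign with a call, 16 uncalled ones changed sign, and 2 moved by more than their error, both *Dcx* with the length and GC trend removed (-0.033 between 3xTg-S and 3xTg-D and 0.017 for the inhibitor). With a library left out, 85 of 880 values changed sign, none of them called. Depth limits *Eomes*, *Igfbpl1*, *Mki67* and *Top2a*. The cause of these changes was not tested.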

Other observations

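Lists for cells around the dentate lineage were read in the 10-month strain effect, where 3.17% of all genes were called higher and 3.36% lower. Microglia, the immune cells of the brain, had 4 of 7 genes higher in 3xTg and none lower, among them *Siglech* (0.44, edgeR adjusted p = 0.0065) and *Tmem119* (0.36, adjusted p = 0.032). Cajal-Retzius cells, which secrete reelin along the hippocampal fissure, had 3 of 5 tested genes lower, *Trp73* (-0.67, adjusted p = 0.032), *Ndnf* (-0.24, adjusted p = 0.028) and *Reln* (-0.22, adjusted p = 0.015), and *Nhlh2* higher (0.62, adjusted p = 0.045). In WT-8M *Reln* had a mean of 116 CPM and *Ndnf* 32.4, against 2.35 for *Trp73*. The part of other cells in *Reln* and *Ndnf* was not tested. Of 8 pyramidal neuron genes 2 were lower, *Wfs1* (-0.44, adjusted p = 0.00023) and *Cpne4* (-0.24, adjusted p = 0.016).

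Of 7 tested striatal genes 1 was lower, *Rgs9* (-0.50, adjusted p = 0.028), and of 7 genes of subventricular zone neuroblasts 1 was higher, *Dlx6os1* (0.34, adjusted p = 0.0059). *Dlx6os1* had a mean of 31.4 CPM in WT-8M, above *Dcx* at 19.2. Its list therefore cannot be read as neuroblasts alone, and the part of other cells in it was not tested. None of the tested genes passed for thalamus (8), oligodendrocyte precursors (8), choroid plexus (10) or ependyma (7). The inhibitor called no gene of any list, but edgeR called 0% of all 16262 genes for it, so no list could show anything else. At 8 months *Calcrl* of mossy cells was lower (-0.52, adjusted p = 0.036), as was *Rgs9* (-1.14, adjusted p = 0.0020), and *Htr3a* was higher (0.54, adjusted p = 0.040).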
